A study of Mus musculus with 6 samples.

Results

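The Wnt ligand genes described here are 10 of the 19 Wnt genes that the deposited table lists for mouse embryonic stem cells: Wnt2b, Wnt3, Wnt3a, Wnt4, Wnt5a, Wnt5b, Wnt6, Wnt7b, Wnt8a and Wnt11. They were taken by name from the 36699 rows of the table, and each of the 10 has 1 row that names no other gene. RNA was sequenced from A2Lox.cre embryonic stem cells that had formed embryoid bodies, floating aggregates in which the cells begin to differentiate, and were harvested on day 3. All 6 libraries came from cells carrying a Flag-Lef1 transgene. In plus_Dox (3 libraries, numbered 1, 2 and 3) the transgene was switched on with doxycycline from day 2, for 24 h, whereas minus_Dox (3 libraries, numbered 1, 3 and 4) received none. A2Lox.cre is a line with a docking site near Hprt into which inducible transgenes are placed. Doxycycline given to cells without the transgene was not analysed here, so the drug and the induced factor cannot be told apart. The cells had been kept on mouse embryonic fibroblasts, which were stripped away before aggregation.

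Wnt ligands are secreted, lipid-modified glycoproteins that bind Frizzled receptors. Ligands of the canonical branch also engage Lrp5 or Lrp6 and stabilise beta-catenin, which acts in the nucleus through DNA-binding partners of the Tcf/Lef family such as Lef1. Noncanonical ligands act through receptors such as Ror2 on cell movement and polarity, and in the early mouse embryo canonical Wnt signalling is needed to form the primitive streak, from which mesoderm and endoderm arise. The comparison of plus_Dox with minus_Dox describes what differs after doxycycline was given to cells carrying Flag-Lef1. Direct and later effects of Lef1 were not separated.

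Each gene has, in the authors' deposited table, 1 FPKM value per group, that is, sequenced fragments scaled to transcript length and library size. Values of single libraries were not used here, so levels carry no standard deviation, the depth of the libraries is unknown, and replicate error enters only through the authors' own test. The standard error (SE) of a log2 fold, always plus_Dox over minus_Dox, was derived from the statistic of the authors' test, and a gene was called at a q-value of at most 0.05. Nothing in the labels ties the libraries to separate cultures, so their spread may be technical. Lef1 itself stood at 51.0 FPKM in plus_Dox and 7.56 FPKM in minus_Dox in the authors' deposited table (log2 fold 2.75 with an SE of 0.19, q listed as 0). The Lef1 row does not separate RNA of the transgene from that of the endogenous gene. In bulk RNA, fewer cells that express a gene and less of its RNA per cell cannot be told apart.

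Of the 10 Wnt ligand genes, 9 were tested by the authors, and 6 of these rose in plus_Dox: Wnt8a, Wnt5b, Wnt3, Wnt6, Wnt11 and Wnt4. None fell, whether at this q-value or at an unadjusted p under 0.05 in the authors' test (0 genes in each case). Of all 18114 rows tested, 8.98% were called higher in plus_Dox and 3.22% lower. Among the 8234 tested rows at the level of most of these ligands, 0.1 to 4 FPKM in the higher group, 3.68% were called higher. Wnt2b, Wnt5a and Wnt7b did not pass, and Wnt3a was marked as not tested. The median log2 fold of the 9 tested ligands was 1.30, against 0.20 for the 17830 tested rows with a finite fold.

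**Figure D1:**
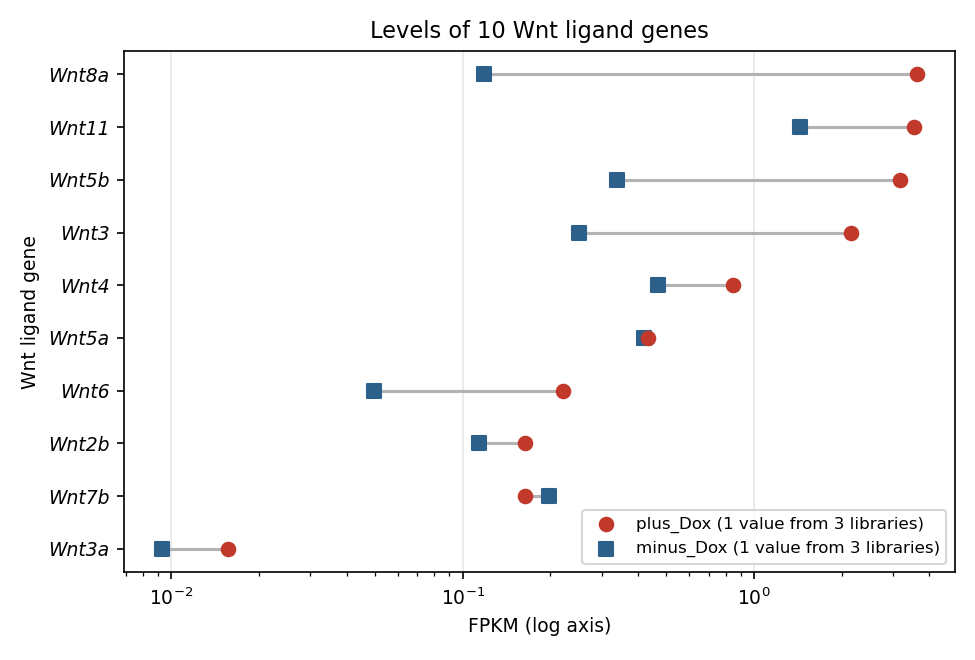
FPKM of the 10 Wnt ligand genes on a log axis, with plus_Dox as circles and minus_Dox as squares, each symbol being the authors' single value from 3 libraries, without error. In plus_Dox 4 genes lie above 1 FPKM (Wnt8a, Wnt11, Wnt5b and Wnt3), against 1 gene in minus_Dox (Wnt11).

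Shown here are 3 promoter windows, chosen because they belong to called ligand genes and hold a sequence that Tcf/Lef proteins are known to recognise. The windows run from 250 bases before to 50 bases after an annotated transcript start and were taken from RefSeq (build GRCm38.p6). They are printed 5′ to 3′ on the strand of the gene, and capitals mark a match, on either strand, to CTTTGNN with A or T at each N. The coordinates, in the order printed, are chr11:103773925-103774224 on the plus strand, chr6:119449337-119449636 on the minus strand (the third of 3 windows of Wnt5b) and chr7:98834862-98835161 on the plus strand (the first of 2 windows of Wnt11).
Wnt3: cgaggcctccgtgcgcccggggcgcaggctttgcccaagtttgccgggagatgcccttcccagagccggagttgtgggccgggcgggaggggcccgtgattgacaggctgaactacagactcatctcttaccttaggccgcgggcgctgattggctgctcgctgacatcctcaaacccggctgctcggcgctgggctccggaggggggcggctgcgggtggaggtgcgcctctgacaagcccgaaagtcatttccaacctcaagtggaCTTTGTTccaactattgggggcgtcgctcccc
Wnt5b: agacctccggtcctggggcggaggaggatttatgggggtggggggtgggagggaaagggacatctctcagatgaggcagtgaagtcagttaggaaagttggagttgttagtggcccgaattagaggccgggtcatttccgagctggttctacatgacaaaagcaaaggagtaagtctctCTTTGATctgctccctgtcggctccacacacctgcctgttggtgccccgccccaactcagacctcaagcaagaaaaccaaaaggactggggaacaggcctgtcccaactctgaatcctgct
Wnt11: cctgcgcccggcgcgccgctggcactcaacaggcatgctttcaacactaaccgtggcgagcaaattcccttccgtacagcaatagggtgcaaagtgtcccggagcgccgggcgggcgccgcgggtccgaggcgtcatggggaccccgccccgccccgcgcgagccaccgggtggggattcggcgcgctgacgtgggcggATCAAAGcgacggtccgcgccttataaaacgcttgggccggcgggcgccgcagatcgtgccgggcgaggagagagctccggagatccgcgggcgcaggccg

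The match begins at base 269 of the Wnt3 window, after the transcript start, and at base 180 of the Wnt5b window. In the Wnt11 window it begins at base 200 and lies on the opposite strand. RefSeq windows were found for 7 of the 10 genes, 10 windows in all, and 3 of the 10 held a match. Of all 32851 RefSeq windows of this length, 16.9% held one. The windows of Wnt2b, Wnt3a, Wnt4 and Wnt6 held no match. Wnt5a, Wnt7b and Wnt8a had no window, so Wnt8a, the ligand with the largest fold, was not examined. A match describes the sequence only and does not show that Lef1 binds there.

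Among the canonical ligands of the streak, Wnt8a and Wnt3 rose and Wnt3a was not tested. Wnt8a, which is expressed in the posterior epiblast and streak of the mouse embryo, stood at 3.63 FPKM in plus_Dox and 0.119 FPKM in minus_Dox in the authors' deposited table. This was a 30.5-fold difference with a 95% interval of 19.3 to 48.3 (log2 fold 4.93 with an SE of 0.34, q listed as 0). Its log2 fold was the eighth highest of all tested rows with a finite value. Coordinates of the table are given in mm9, per the submitters' processing notes, and place Wnt8a on chromosome 18 from 34701966 to 34707927.

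Wnt3, the ligand without which the mouse embryo forms no streak, had 2.16 FPKM in plus_Dox and 0.250 FPKM in minus_Dox in the authors' deposited table. The difference was 8.63-fold with a 95% interval of 6.08 to 12.3 (log2 fold 3.11 with an SE of 0.26, q listed as 0). Its row covers chromosome 11 from 103635463 to 103679271 in mm9. Wnt3 and Wnt8a were the ligands whose rise passed under each scaling used here, and both began from levels below 1 FPKM.

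Wnt3a, a close relative of Wnt3 that maintains the streak and the forming trunk mesoderm, was nearly silent in both groups, with 0.0157 FPKM in plus_Dox and 0.00930 FPKM in minus_Dox in the authors' deposited table. It was marked as not tested there and no fold is read from it. Together Wnt3, Wnt3a and Wnt8a summed to 5.80 FPKM in plus_Dox and 0.378 FPKM in minus_Dox.

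Of the noncanonical ligands, Wnt11 and Wnt5b rose and Wnt5a did not pass. Wnt11, which guides convergent extension movements in zebrafish, was the most abundant ligand gene of minus_Dox. In the authors' deposited table it reached 3.55 FPKM in plus_Dox, against 1.44 FPKM in minus_Dox (2.46-fold, 95% interval 1.66 to 3.64, log2 fold 1.30 with an SE of 0.29, q = 0.00030). Wnt5b, a noncanonical ligand of the streak and tail, had 3.17 FPKM in plus_Dox and 0.339 FPKM in minus_Dox in the authors' deposited table.

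The Wnt5b rise was 9.34-fold, close in size to that of Wnt3, but its error was wide: the 95% interval ran from 2.37 to 36.9 (log2 fold 3.22 with an SE of 1.01, q = 0.017 in the authors' deposited table). Of the 1646 tested rows with 2 to 4 FPKM in the higher group, 89.8% had a smaller implied SE than Wnt5b, 61.4% a smaller one than Wnt8a, 51.2% than Wnt11 and 41.1% than Wnt3. Fbxl14, a gene for an F-box protein of ubiquitin ligases, is listed with the same coordinates as Wnt5b, chromosome 6 from 119382548 to 119494336 in mm9. It had 16.2 FPKM in plus_Dox and 13.1 FPKM in minus_Dox in the authors' deposited table and did not pass (log2 fold 0.31 with an SE of 0.17, q = 0.25). The labels and headers do not state how reads were divided between these overlapping rows, and the Wnt5b value is uncertain to that extent.

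Wnt5a, the relative of Wnt5b that drives axis elongation through Ror2, had 0.434 FPKM in plus_Dox and 0.419 FPKM in minus_Dox in the authors' deposited table (log2 fold 0.05 with an SE of 0.51, q listed as 1.00). Its 95% interval ran from 0.516-fold to 2.08-fold, so a change within these bounds was not excluded. Wnt5b stood at 7.30 times the level of Wnt5a in plus_Dox and 0.810 times in minus_Dox. Whether the folds of these relatives differ was not tested. Wnt5a, Wnt7b and Wnt11 also share their coordinates with another row (Gm2670, AU022754 and Gm8398), each of which was below 0.1 FPKM in both groups and not tested.

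The other ligands stayed below 1 FPKM in both groups. Wnt4, best known from kidney and female reproductive tract development, had 0.845 FPKM in plus_Dox and 0.469 FPKM in minus_Dox in the authors' deposited table (1.80-fold, 95% interval 1.28 to 2.54, log2 fold 0.85 with an SE of 0.25, q = 0.012). Wnt6, a ligand of epithelia and surface ectoderm, had 0.222 FPKM in plus_Dox and 0.0497 FPKM in minus_Dox there (4.46-fold, 95% interval 2.18 to 9.16, log2 fold 2.16 with an SE of 0.53, q = 0.0013). Both rose, yet even in plus_Dox the level of Wnt6 was in the lowest 16.2% of tested rows.

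Wnt2b, which acts with Wnt2 in specifying the lung, had 0.164 FPKM in plus_Dox and 0.114 FPKM in minus_Dox in the authors' deposited table (log2 fold 0.53 with an SE of 0.39, q = 0.47). Wnt7b, a ligand of lung and kidney development, had 0.164 FPKM in plus_Dox and 0.198 FPKM in minus_Dox there (log2 fold -0.27 with an SE of 0.47, q = 0.86). Neither passed, and their 95% intervals reached 2.44-fold higher for Wnt2b and 0.437-fold for Wnt7b.

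**Figure D2:**
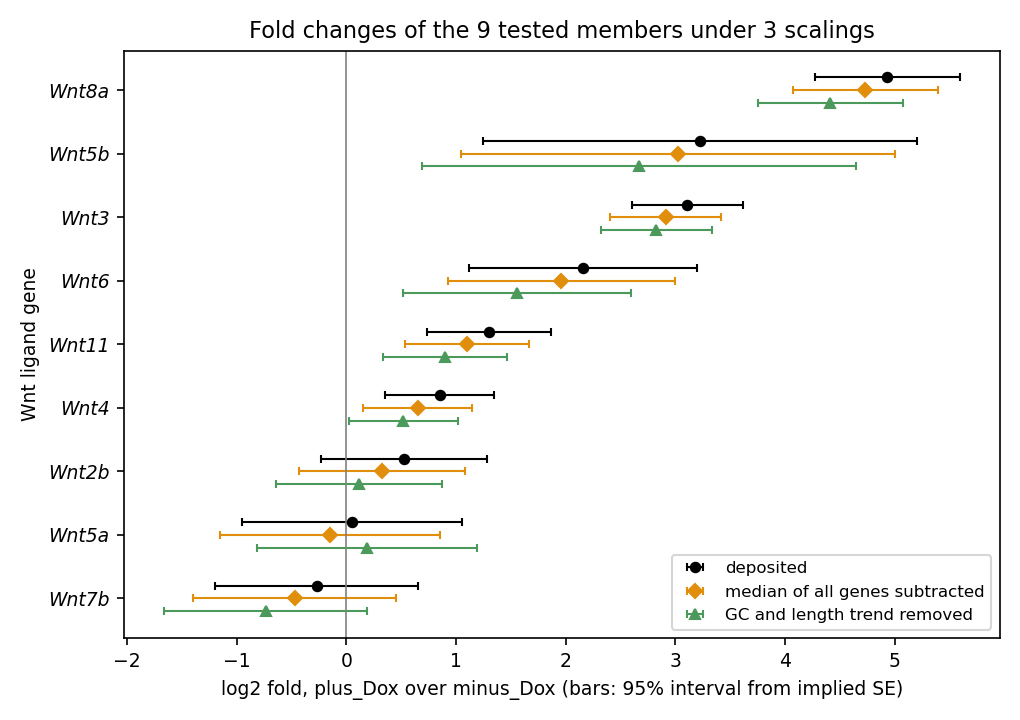
log2 fold of plus_Dox over minus_Dox for the 9 tested ligand genes, with 95% intervals from the SE implied by the authors' statistic. Circles are the deposited folds, diamonds those after subtraction of the median of all genes and triangles those after removal of a trend on transcript GC content and length. Wnt8a, Wnt5b and Wnt3 stay above 2 in each, and the interval of Wnt5b is the widest.

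The order of levels changed between the groups. In plus_Dox it ran Wnt8a, Wnt11, Wnt5b, Wnt3, Wnt4, Wnt5a, Wnt6, Wnt2b, Wnt7b and Wnt3a from high to low, and in minus_Dox Wnt11, Wnt4, Wnt5a, Wnt5b, Wnt3, Wnt7b, Wnt8a, Wnt2b, Wnt6 and Wnt3a. Since no spread between libraries is known for a level, whether neighbours in either order differ could not be tested. The leading pair in plus_Dox, Wnt8a and Wnt11, differed by a factor of 1.02, whereas in minus_Dox Wnt8a stood at 0.0824 times Wnt11.

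Summed over the 10 genes, the level was 14.3 FPKM in plus_Dox and 3.41 FPKM in minus_Dox, a ratio of 4.21, or 3.26 without Wnt8a. Wnt8a made up 25.3% of the sum in plus_Dox and 3.49% in minus_Dox. Wnt11 made up 24.7% in plus_Dox and 42.3% in minus_Dox. Wnt5b accounted for 22.1% in plus_Dox and 9.95% in minus_Dox, and Wnt3 for 15.0% in plus_Dox and 7.33% in minus_Dox. The share of Wnt4 was 5.89% in plus_Dox and 13.8% in minus_Dox, although its own level rose. Even the highest ligand gene in plus_Dox, Wnt8a, lay just below the median of all tested rows there, 3.67 FPKM.

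**Figure D3:**
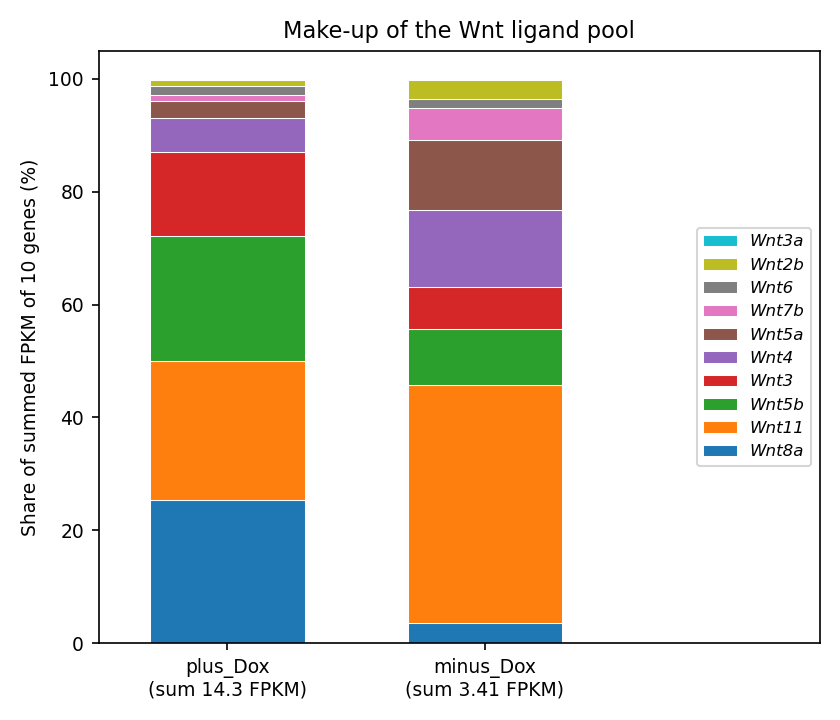
Share of each gene in the summed FPKM of the 10 Wnt ligand genes, as stacked bars for plus_Dox (sum 14.3 FPKM) and minus_Dox (sum 3.41 FPKM). Wnt11 holds 42.3% of the minus_Dox sum, while Wnt8a, Wnt11, Wnt5b and Wnt3 together hold 87.1% in plus_Dox and 63.1% in minus_Dox.

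Fold changes over the whole table leaned upward and followed transcript composition. The median log2 fold of the 12240 tested rows with at least 1 FPKM was 0.20. Once this was subtracted, 1705 rows were called, 618 higher (3.47%) and 1087 lower, in place of 1626 higher and 584 lower. Wnt8a, Wnt3, Wnt5b, Wnt6 and Wnt11 passed again, and Wnt4 did not (log2 fold 0.65, Benjamini-Hochberg q = 0.086 over the 17830 tested rows with a finite fold).

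Across 11596 genes the log2 fold also rose with transcript GC content (Spearman's rho 0.65) and fell with transcript length (-0.47), and genes are not independent replicates. The 9 tested ligand genes have transcripts of 46.7% to 61.3% GC, and the trend at their own GC content and length ran from -0.13 (Wnt5a) to 0.60 (Wnt6). After its removal, 1.25% of rows were called higher, and of the ligand genes Wnt8a (log2 fold 4.41, q = 1.7e-35) and Wnt3 (2.82, q = 1.1e-24) passed, with q the Benjamini-Hochberg value over 16658 rows. Wnt5b (2.67, q = 0.20), Wnt6 (1.56, q = 0.11), Wnt11 (0.90, q = 0.074) and Wnt4 (0.52, q = 0.51) kept their direction and did not pass. The cause of the trend was not tested.

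**Figure D4:**
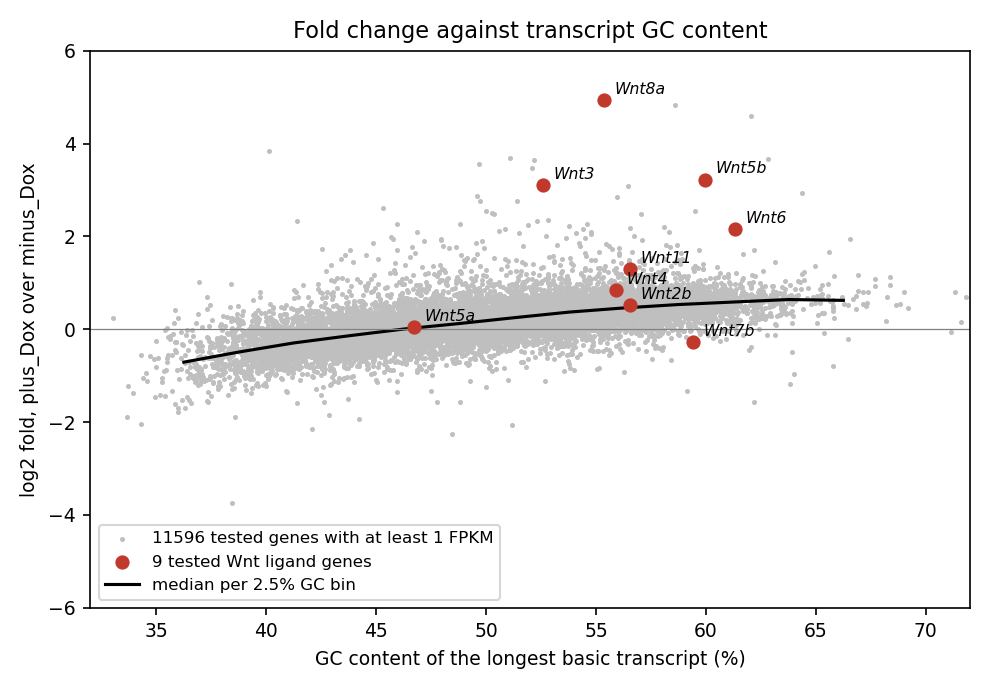
log2 fold of plus_Dox over minus_Dox against the GC content of the longest basic transcript, for 11596 tested genes with at least 1 FPKM (grey, 9 of them outside the axes) and the 9 tested Wnt ligand genes (red). The line is the median per 2.5% bin of GC content. Wnt8a, Wnt3, Wnt5b and Wnt6 stand well above it, and Wnt4 and Wnt2b lie close to it.

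Of the other 9 Wnt genes, each was below 1 FPKM in both groups, 4 were tested and 1 rose. That was Wnt9b, an inducer of kidney tubules, with 0.0790 FPKM in plus_Dox and 0.0173 FPKM in minus_Dox in the authors' deposited table (log2 fold 2.19 with an SE of 0.58, q = 0.0037, and 0.061 after trend removal). Wnt9b is also the nearest tested gene before Wnt3, 24327 bases away, whereas Arf2, the nearest after it, did not pass (log2 fold 0.02 with an SE of 0.19, in the authors' deposited table).

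The nearest tested gene on either side of the 6 called ligands gave 12 distinct neighbours, of which Wnt9b was the only one called. Over all tested rows 12.2% were called in either direction, so this count is not read as a trait of these loci. Next to Wnt8a, Nme5, a sperm-associated gene of the nucleoside diphosphate kinase family, had 0.653 FPKM in plus_Dox and 0.188 FPKM in minus_Dox in the authors' deposited table and did not pass (log2 fold 1.80 with an SE of 0.83, q = 0.15). Pkd2l2, on the other side of Wnt8a, had a log2 fold of 0.46 with an SE of 0.96 in the authors' deposited table. Prkag3 beside Wnt6 had one of 1.18 with an SE of 1.03, and Cdk5r2 on its other side 0.14. The other neighbours that did not pass, those of Wnt3, Wnt4, Wnt5b and Wnt11, had log2 folds from -0.25 (Prkrir) to 0.18 (Zbtb40) in the authors' deposited table.

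By closeness of both group levels, a likeness over only 2 values, the gene nearest to Wnt8a was H3f3c, a histone H3.3 copy, followed by Wnt3 and Alox15, a lipoxygenase gene. Their distances were 1.01, 1.31 and 1.47 in log2 units, so no tested gene lay close to Wnt8a. The genes nearest to Wnt3 were Gm12660, H3f3c and Gm6404 (0.45 to 0.55), and those nearest to Wnt11 were Rps18-ps1, Rps2-ps9 and Gm14633 (0.10 to 0.13). Several of these are pseudogenes or histone copies and may share reads with other copies.

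Genes that make, carry, receive and answer Wnt ligands were counted by role. Of 10 genes for secretion and release, 9 were tested and 0 were called (3 had an unadjusted p under 0.05 in the authors' test). Porcn, the acyltransferase that lipidates Wnt proteins, had 6.00 FPKM in plus_Dox and 3.83 FPKM in minus_Dox in the authors' deposited table (log2 fold 0.65 with an SE of 0.24, q = 0.053). The log2 fold of Porcn was 0.45 with the median of all genes subtracted and 0.09 after trend removal, and it passed in neither case. Vps29 and Vps35, retromer subunits that recycle the Wnt carrier Wls and the 2 members of the list with the highest mean, had log2 folds of 0.27 and -0.43 in the authors' deposited table, and Vps35 was called lower once the median of all genes was subtracted.

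Of 15 genes for secreted antagonists, 12 were tested, 5 rose and 1 fell, with a median log2 fold of 0.41. Dkk4, which blocks Lrp5 and Lrp6, had 0.524 FPKM in plus_Dox and 0.00249 FPKM in minus_Dox in the authors' deposited table (log2 fold 7.72 with an SE of 2.28, q = 0.010). The minus_Dox level of Dkk4 is close to 0, its log2 difference was 2.61 with a pseudocount of 0.1, and it did not pass after trend removal (q = 0.056). Frzb, a soluble Frizzled-like protein, had 0.986 FPKM in plus_Dox and 0.264 FPKM in minus_Dox there (log2 fold 1.90 with an SE of 0.52, q = 0.0047), and Dkk1, a relative of Dkk4, had 3.05 FPKM in plus_Dox and 1.32 FPKM in minus_Dox (log2 fold 1.21 with an SE of 0.22, q = 7.1e-06). After trend removal 4 of the 6 calls of the list passed in the same direction, Frzb and Dkk1 among them.

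Of 16 receptor and co-receptor genes, all tested, 3 rose and 3 fell, and the median log2 fold was -0.08. After trend removal 3 rises and 1 fall passed. The largest changes were the rises of the Frizzled genes Fzd10 (log2 fold 2.18 with an SE of 0.24) and Fzd9 (1.71 with an SE of 0.26) and of the noncanonical receptor gene Ror2 (1.51 with an SE of 0.21) in the authors' deposited table. Ror2, a receptor through which Wnt5a acts, had 2.75 FPKM in plus_Dox and 0.962 FPKM in minus_Dox in the authors' deposited table. The falls there were those of Fzd4 (log2 fold -0.86 with an SE of 0.26), Ror1 (-0.75 with an SE of 0.21) and Fzd7 (-0.54 with an SE of 0.18). Of these, only Fzd7 passed after trend removal. Ror1 had 1.19 FPKM in plus_Dox and 2.01 FPKM in minus_Dox.

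Of 11 R-spondin, Lgr and receptor turnover genes, 10 were tested and 0 were called (2 had an unadjusted p under 0.05 in the authors' test). The members with the highest mean, Lgr4 (log2 fold -0.17 with an SE of 0.22) and Rspo1 (0.64 with an SE of 0.29), did not pass in the authors' deposited table. Of 6 heparan sulphate carriers 1 rose, Gpc1 (22.6 FPKM in plus_Dox and 14.9 FPKM in minus_Dox in the authors' deposited table, q = 0.0049), and it passed neither after subtraction of the median nor after trend removal (log2 fold 0.19).

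Feedback and direct targets of the canonical pathway showed 6 rises and 0 falls (also 0 at an unadjusted p under 0.05 in the authors' test) among 10 tested of 12 genes, with a median log2 fold of 1.67, and all 6 passed after trend removal. Sp5 (log2 fold 4.59 with an SE of 0.41), T (3.64 with an SE of 0.42) and Tnfrsf19 (2.88 with an SE of 0.24) led them in the authors' deposited table. Cdx2, Tcf7, Ccnd1 and Myc were tested and did not pass, with log2 folds from 0.19 (Ccnd1) to 0.55 (Myc) there. Over all tested rows 8.98% were called higher, and 1.25% of rows after trend removal.

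**Figure D5:**
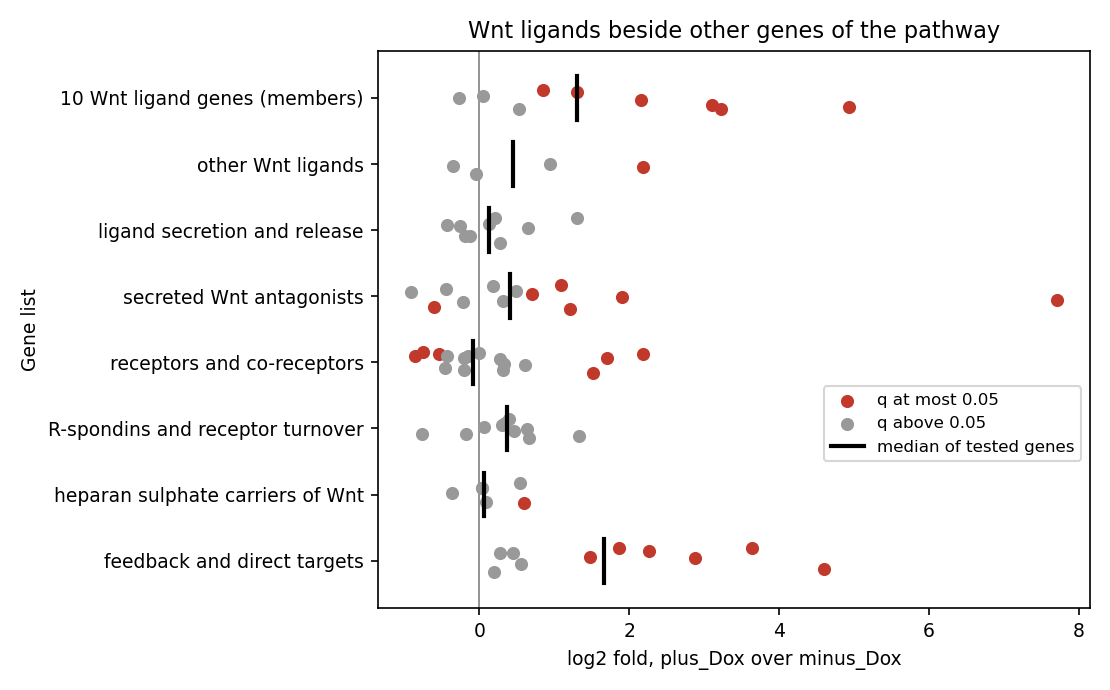
log2 fold of plus_Dox over minus_Dox for tested genes of 8 lists, 1 point per gene, red where the authors' q-value was at most 0.05 and grey otherwise, with the median of each list as a bar. Ligand genes and feedback targets have medians of 1.30 and 1.67, against -0.08 for receptors and 0.12 for secretion genes.

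Markers of other cell types were set beside the ligand rises. All 7 tested of 8 primitive streak markers rose (sum 119.8 FPKM in plus_Dox and 19.3 FPKM in minus_Dox), and Mesp1 was at 0.0428 FPKM in plus_Dox and 0.0181 FPKM in minus_Dox in the authors' deposited table, not tested. T is counted here and also among the rises of the feedback and direct targets. Of 7 tested of 8 epiblast markers 2 rose and 2 fell, and the median log2 fold was -0.12. The rises were Nanog (log2 fold 1.94) and Tdgf1 (2.61) and the falls Sox2 (-0.86) and Fgf4 (-0.83) in the authors' deposited table. Pou5f1, the most abundant marker of this list, did not pass there (log2 fold 0.88 with an SE of 0.33, q = 0.055). Its level was 1510 FPKM in plus_Dox and 820 FPKM in minus_Dox. Dnmt3b was not tested, and no fold is read from it. Of 7 tested of 8 extraembryonic endoderm markers 1 rose. This was Sox17 (log2 fold 0.67 in the authors' deposited table), which passed neither with the median subtracted nor after trend removal, where Gata6 was called lower instead (log2 fold -0.74, q = 0.020). The sum of this list was 147.1 FPKM in plus_Dox and 151.2 FPKM in minus_Dox. Dab2, the marker that was not tested, made up 61.2 FPKM of the plus_Dox sum and 78.8 FPKM of the minus_Dox sum. The order of the 2 sums therefore rests on an untested row. Of 8 tested of 9 fibroblast markers 0 were called by the authors' test (3 at an unadjusted p under 0.05, all higher in plus_Dox). Their sum was 23.6 FPKM in plus_Dox and 18.5 FPKM in minus_Dox, of which Thy1 gave 16.6 FPKM and 11.9 FPKM. Of the 4 tested neural markers 0 were called by the authors' test (1 at an unadjusted p under 0.05, sum 46.8 FPKM in plus_Dox and 41.4 FPKM in minus_Dox). After trend removal the neural marker Sox3 was called lower (log2 fold -0.84, q = 0.00029). Of 4 tested trophoblast markers only Eomes, also a streak marker, was called. The part of a shift in cell types in the ligand rises was not tested.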

How the data were processed

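The Wnt ligand genes and all gene lists were chosen with earlier results of these data known. Tools listed in the submitters' processing notes, without roles, are Cuffdiff, Cufflinks 2.0.2, TopHat2 2.0.8, Picard and Bowtie, with mouse build mm9. The annotation of genes is not given in the sources used. Per the file headers, the deposited table holds FPKM values computed by the authors, 1 per group of 3 libraries, and their log2 fold. The deposited test statistic is a score whose sign is opposite to the log2 fold, and the deposited p-value and q-value are those of the authors' own test. There are 0 columns of single libraries, so no model was fitted and no counting interval was computed. The SE was computed as the absolute log2 fold over the absolute statistic, and 95% intervals assume a normal spread.

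Calls used q at most 0.05. Of 36699 rows, 18114 were tested, 284 of them with 0 in 1 group and no finite fold. Genes named besides the ligands were up to 3 calls per list, by size of fold, or, without a call, the 2 tested genes with the highest mean, together with neighbours and like genes of called ligands. Porcn, the receptor genes that fell, the feedback targets that did not pass and all marker genes were named after their values were seen.

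Alternatives were q thresholds of 0.01 and 0.1, a 2-fold minimum, minima of 1 and 5 FPKM, pseudocounts of 0.1 and 1, rows naming several genes left out, the median log2 fold subtracted, and a trend on GC content and log2 length (natural cubic splines, 6 knots each, least squares on rows with at least 1 FPKM) removed. Both properties were those of the longest basic transcript in GENCODE vM21 (92.5% of tested rows). Of these steps, only the trend removal and the test after it were tried on simulated data, with normal noise drawn from the same SEs. Python 3.11.15, numpy 2.4.6, pandas 2.3.3, scipy 1.17.1 and matplotlib 3.10.9 were used.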

Additional observations from a re-analysis of the deposited data

How the results depend on the processing

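The count of called ligand genes, 6, was 4 at q 0.01 or with at least 1 FPKM, 5 with a 2-fold minimum or the median subtracted, 6 at q 0.1 or without rows naming several genes, 2 after trend removal and 0 with at least 5 FPKM, a level no ligand reached. Over all rows, 2210 calls became 1208 at q 0.01, 491 with a 2-fold minimum and 369 after trend removal. The 20 calls of the pathway lists became 5 with at least 5 FPKM. Over 8 settings, the 6 called ligands gave 48 combinations, in 16 of which the call was lost. At q 0.1 or without rows naming several genes, no ligand call could be lost. The 3 tested ligands without a call gained none at q 0.1, with the median subtracted or after trend removal. In the remaining settings no call could be gained, because these only filter the main calls. Wnt5a, never called, turned from a log2 fold of 0.05 to -0.15 with the median subtracted. The cause of these changes was not tested. With a pseudocount of 1 the log2 difference of Wnt8a was 2.05 in place of 4.93 and that of Wnt3 1.34 in place of 3.11. No paired analysis was possible because the table holds 1 value per group. Leaving out single libraries was not possible for the same reason. Depth is unknown for all 10 genes, and 9 of them lay below 1 FPKM in minus_Dox.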
